A study of Mus musculus with 15 samples.

Results

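Actb and Tuba1b are 2 of the 15 genes that carry a name on the lncRNA and mRNA array used in this study of mouse liver. They were chosen by their probes, CUST_9_PI419532418 for the RefSeq mRNA NM_007393.3 (Actb) and CUST_1_PI419532418 for NM_011654.2 (Tuba1b), each printed as 20 spots on every array. They make up 2 of 60915 probes in all. The pair was taken up because the levels of both genes had already been seen to part between the groups. Their group differences are therefore given as a description, with values and standard errors and without a test, and support nothing by themselves.

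Actb encodes cytoplasmic beta-actin, whose monomers assemble into the filaments of the cell cortex. In hepatocytes these filaments are dense around the bile canaliculi, the channels between cells that carry bile. Transcription of Actb is driven in part by serum response factor and its MRTF coactivators, which are held back by free actin monomer. Tuba1b encodes an alpha-tubulin, which pairs with beta-tubulin to build microtubules, the tracks along which secretory vesicles and organelles move in liver cells. Tubulin mRNAs are known to be broken down when free tubulin dimers accumulate. Both genes are widely used as references for the amount of RNA or protein in a sample, beta-actin above all.

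Both genes have close relatives: Actg1 encodes a nearly identical cytoplasmic actin, and Tuba1a and Tuba1c encode nearly identical alpha-tubulins. The array names no probe for any of these 3, and signal from such relatives on the Actb and Tuba1b probes cannot be told apart here. Of the 36 genes in a list of actin, tubulin and other cytoskeleton genes, 2 had a named probe, and these are Actb and Tuba1b themselves. Of 9 immediate early genes and serum response factor targets 1 was named, again Actb, and of 5 tubulin assembly genes 0 were.

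The 15 arrays held total RNA of C57BL/6 liver, 5 in each of 3 groups, with no transgene or drug treatment named in the labels beyond anaesthesia. Sham mice had the abdomen opened and the hilum handled with no vessel clamped. In ischaemia-reperfusion (I/R) mice a clamp on the left lateral and median lobes cut off 70% of the liver for 75 min, followed by 2 h of reperfusion. Preconditioned mice (IPC) went through 10 min of ischaemia and 10 min of reperfusion before the same I/R. The study describes 18 mice, 6 per group. The labels do not say which mouse an array came from, so the spread between arrays may be in part technical. The tissue label could not be set against marker genes, since 0 of 29 markers in 9 lists of liver and blood cell types have a named probe.

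Values are log2 processed signals of a probe, averaged over its spots, less the 75th percentile of the same array. That percentile was 8.48 to 8.77 on the 7 arrays of slide 1 and 8.07 to 8.31 on the 8 arrays of slide 2, where slides are told apart by their scan. All sham arrays and I/R arrays 1 to 3 lay on slide 2, and I/R arrays 4 and 5 and all IPC arrays on slide 1. IPC and sham thus shared no slide. Both member probes were bright: all 600 spot values were well above background, and the highest median signal of a spot was 29950 against a saturation value of 778080. The difference between control spots named for the 3′ and 5′ parts of Gapdh also moved with the groups, and its values stand beside the results below.

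Actb stood lowest in sham liver and higher in both clamped groups. The sham arrays 1 to 5 had Actb at 5.39, 5.47, 5.49, 5.42 and 5.36. The I/R arrays 1 to 5 had it at 6.01, 5.99, 6.02, 6.06 and 6.15. The IPC arrays 1 to 5 had it at 6.00, 6.03, 5.85, 6.01 and 5.93. Every I/R and every IPC array lay above every sham array, while the I/R and IPC values overlapped. The order of the group means was sham (5.42 ± 0.053, SD, n = 5), IPC (5.97 ± 0.076) and I/R (6.04 ± 0.063). IPC minus I/R came to -1.20 in units of the pooled SD within groups.

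Tuba1b showed the opposite arrangement. The sham arrays 1 to 5 had Tuba1b at 6.16, 6.26, 6.25, 6.16 and 6.26. The I/R arrays 1 to 5 had it at 5.84, 5.85, 5.90, 5.55 and 5.72. The IPC arrays 1 to 5 had it at 5.85, 5.87, 5.78, 5.96 and 5.92. Every sham array lay above every I/R and IPC array, and the I/R and IPC values again overlapped. I/R arrays 4 and 5, the 2 on slide 1, were the lowest of all 15. The order of the means was I/R (5.77 ± 0.14, SD, n = 5), IPC (5.88 ± 0.071) and sham (6.22 ± 0.053). IPC minus I/R came to 1.06 in units of the pooled SD within groups.

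**Figure D1:**
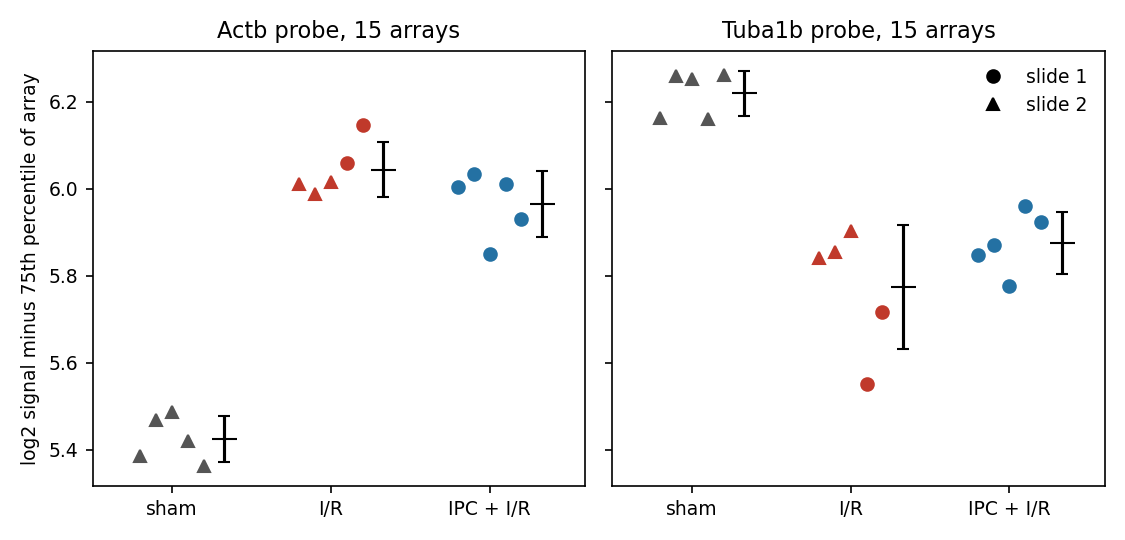
Level of the Actb probe (left) and the Tuba1b probe (right) on each of the 15 arrays, as log2 signal minus the 75th percentile of the array. Circles are arrays of slide 1 and triangles arrays of slide 2, bars are the mean and SD of 5 arrays. Actb is lowest in sham (5.36 to 5.49) and Tuba1b is highest in sham (6.16 to 6.26).

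The spread between spots of one array was smaller than these differences. Over the 15 arrays, the SD between the unflagged Actb spots of an array ran from 0.017 to 0.070, with a median of 0.043. For Tuba1b it ran from 0.023 to 0.059, with a median of 0.039. The mean of an array was thus set to within a standard error of at most 0.016 for Actb and 0.013 for Tuba1b. The scanner software had marked 48 of the 600 member spot values as outliers, and 15 to 20 spots of each probe remained on an array.

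The parting of the groups held down to single spots. The brightest of 96 Actb spots on sham arrays was at 5.59, below the dimmest of 89 on I/R arrays (5.89) and the dimmest of 90 on IPC arrays (5.74). The dimmest of 94 Tuba1b spots on sham arrays was at 6.06, above the brightest of 96 on I/R arrays (5.95) and the brightest of 87 on IPC arrays (6.00). Spots share their array and its RNA, so they count as precision of an array and not as replicates. Local background around single member spots ran from 38.0 to 66.0 units over all arrays, against array medians of 12442 to 27371 units of processed Actb signal and 16094 to 24076 of Tuba1b.

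**Figure D2:**
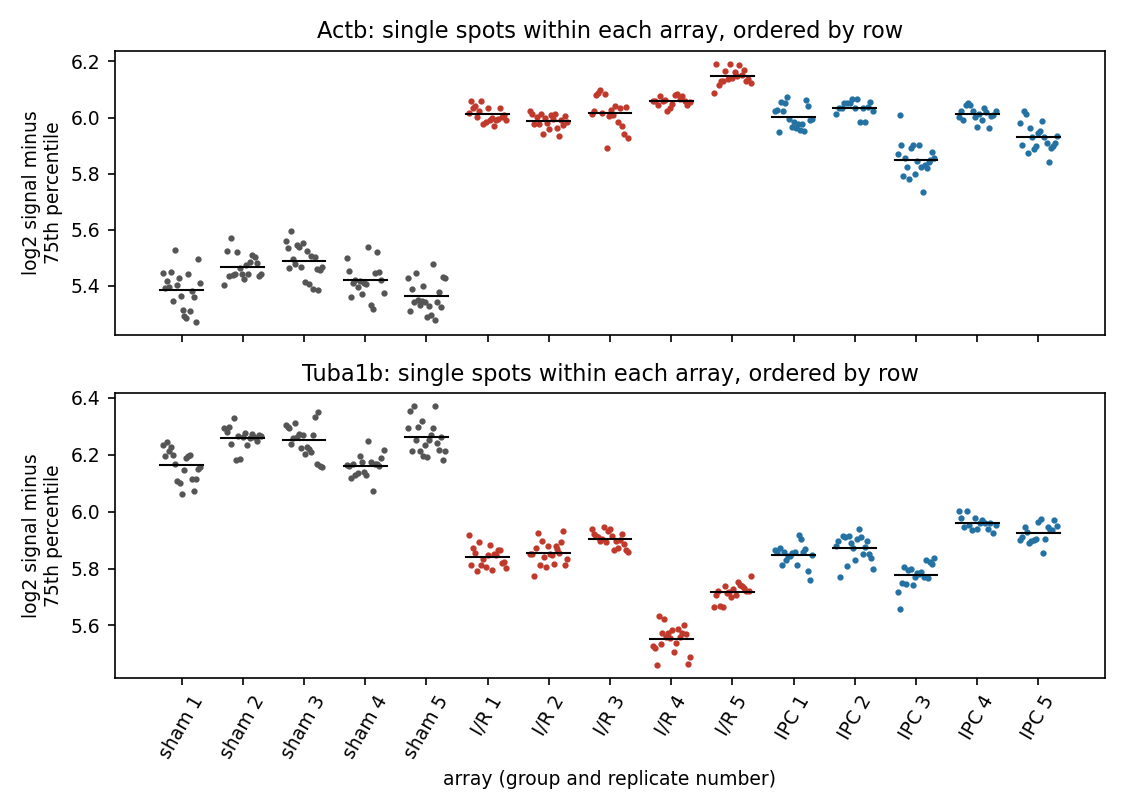
Each unflagged spot of the Actb probe (top) and the Tuba1b probe (bottom) by array, as log2 signal minus the 75th percentile of the array. Lines are the means of the 15 to 20 spots of an array. Every sham spot lies below every I/R and IPC spot for Actb (at most 5.59) and above every one for Tuba1b (at least 6.06).

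I/R against sham asks what clamping and 2 h of reperfusion did to the 2 cytoskeletal mRNAs. Actb was higher in I/R by 0.62 ± 0.050 on the log2 scale (SE), 1.54-fold, with a gap of 0.50 between the lowest I/R and the highest sham array. Tuba1b was lower in I/R by 1.36-fold, a difference of -0.45 ± 0.065 (SE), with a gap of 0.26 between the groups. In units of the pooled SD within groups, these differences came to 9.59 for Actb and -4.62 for Tuba1b. Of the 34985 probes tested, 10.2% were higher on every I/R array than on any sham array, as Actb was, and 13.0% were lower on every I/R array, as Tuba1b was. A rise of at least that of Actb was seen in 5.07% of tested probes and a fall of at least that of Tuba1b in 8.40%. The balance of these shares turned with the scaling: when only probes above background on every array set the 75th percentile, 14.9% were higher and 9.72% lower on every I/R array. Nothing is read from the shares, since the contrast chose the pair.

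Within slide 2, which holds all sham arrays and I/R arrays 1 to 3, Actb differed by 0.58 ± 0.032 and Tuba1b by -0.35 ± 0.034 (SE). These SEs rest on the arrays of that slide alone. In the limma fit with slide as a fixed block, the same differences had SEs of 0.052 and 0.055. On slide 2 both genes had to part the groups, since they did so over all arrays. Of tested probes, 17.5% were higher and 19.3% lower on all I/R arrays of that slide. The difference of the Gapdh control spots, 3′ less 5′, was 0.80 to 0.97 on sham arrays, 0.39 to 0.70 on I/R arrays and 0.51 to 0.65 on IPC arrays. Such differences are commonly read as a measure of RNA quality. This one moved with the groups and was highest in sham, and its part in the Actb and Tuba1b differences was not tested. The Gapdh 3′ spots were at 7.40 to 7.64 in sham, 7.07 to 7.35 in I/R and 7.17 to 7.34 in IPC. The Gapdh 5′ spots overlapped between the groups, at 6.57 to 6.70, 6.55 to 6.68 and 6.66 to 6.78. The named Gapdh probe differed by -0.24 between I/R and sham. For Pgk1 control spots, 3′ less 5′ was 7.51 to 7.65 in sham, 7.51 to 7.92 in I/R and 7.79 to 7.95 in IPC.

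The difference of Actb and Tuba1b on one array needs no scaling, since a factor common to the array drops out. Its zero has no meaning, because 2 probes differ in brightness for reasons other than abundance, and it is read only between arrays. In sham arrays 1 to 5 it was -0.78, -0.79, -0.76, -0.74 and -0.90. In I/R arrays 1 to 5 it was 0.17, 0.13, 0.11, 0.51 and 0.43. In IPC arrays 1 to 5 it was 0.16, 0.16, 0.07, 0.05 and 0.01. Every I/R and IPC array lay above every sham array, and the I/R and IPC arrays overlapped. The parting from sham was bound to follow, since Actb and Tuba1b parted these groups in opposite directions. How often other differences of 2 probes part the groups was not counted.

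**Figure D3:**
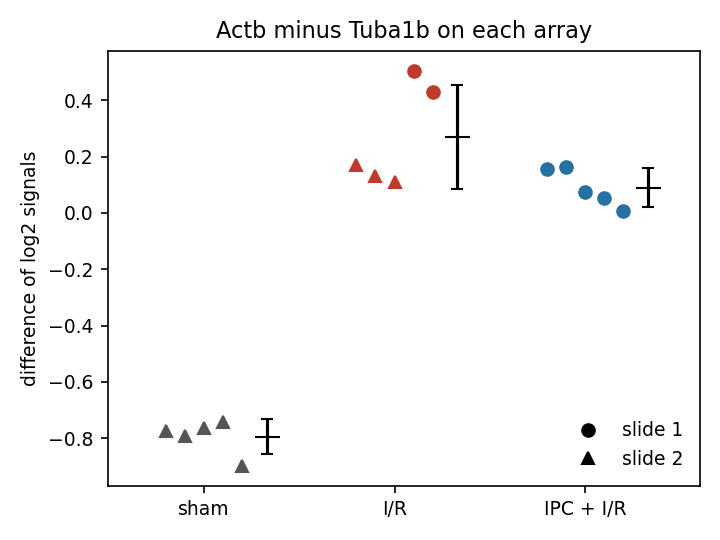
Actb minus Tuba1b on each array, in log2 units, for the 3 groups. Circles are arrays of slide 1 and triangles arrays of slide 2, bars are the mean and SD of 5 arrays. The sham arrays sit between -0.90 and -0.74, and I/R arrays 4 and 5 on slide 1 (0.51 and 0.43) stand above the other 3 I/R arrays.

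In I/R against sham this pair difference was 1.06 ± 0.075 (SE), so that the ratio of Actb to Tuba1b signal was 2.09-fold higher in I/R. Within slide 2 it was 0.93 ± 0.038. Among the 105 pairs that the 15 named genes form, no other pair moved further in this comparison: next came Actb with Hsp90ab1, a cytosolic chaperone (0.89), and Actb with Ppia, or cyclophilin A (0.88). Of the 15, Actb rose most and Tuba1b fell most. The pair was chosen by these differences, so its rank restates them and supports nothing further. The mean of Actb and Tuba1b moved far less. It was 5.82 ± 0.043 in sham, 5.91 ± 0.060 in I/R and 5.92 ± 0.065 in IPC (SD, n = 5). Its groups overlapped in all 3 comparisons. A smaller move of the mean was bound to follow, since the 2 genes differed from sham in opposite directions. The mean was taken under this scaling only, and its use as a reference was not tested.

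IPC against I/R asks whether a short earlier clamp changed these mRNAs in a liver that then had the same ischaemia and reperfusion. Over all arrays neither gene parted the groups: Actb differed by -0.08 ± 0.050, Tuba1b by 0.10 ± 0.065 and the pair difference by -0.18 ± 0.075 (SE, IPC minus I/R). Groups that did not overlap were found for 8.38% of tested probes in this comparison. The I/R arrays differed by slide. Those on slide 2 had a pair difference of 0.11 to 0.17, and the 2 on slide 1 of 0.43 to 0.51. The quality control spots parted the same arrays: 3′ less 5′ of Gapdh was 0.39 to 0.44 on the I/R arrays of slide 2 and 0.68 to 0.70 on those of slide 1, and of Pgk1 7.51 to 7.67 and 7.91 to 7.92. Their part in the split of the pair difference was not tested.

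Within slide 1 the IPC arrays had lower Actb and higher Tuba1b than both I/R arrays. Actb was at 6.06 and 6.15 in the 2 I/R arrays against 5.85 to 6.03 in the 5 IPC arrays, a difference of -0.14 ± 0.061 (SE). Tuba1b was at 5.55 and 5.72 against 5.78 to 5.96, a difference of 0.24 ± 0.069. The pair difference was -0.38 ± 0.055, against -0.18 over all arrays. Neither gene overlapped between the groups on that slide, beside 14.4% of tested probes that were lower and 14.0% that were higher on all IPC arrays there. The pair difference then could not overlap either. This within-slide difference rests on 2 I/R arrays. The Gapdh control spots also parted these arrays, with 3′ less 5′ at 0.68 to 0.70 on the 2 I/R arrays and 0.51 to 0.65 on the 5 IPC arrays, while the Pgk1 values overlapped (7.91 to 7.92 and 7.79 to 7.95). Their part in the within-slide difference was not tested. Against the 3 I/R arrays of the other slide, IPC overlapped in all 3 measures.

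Single arrays also weighed on this comparison. Without I/R array 4, the Tuba1b difference was 0.05 in place of 0.10, and the Actb difference of -0.08 came to -0.05 without IPC array 3 and likewise without I/R array 5. With no scaling between arrays Actb was higher in IPC by 0.18, which turned its direction, and Tuba1b was higher by 0.36.

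IPC against sham sets the preconditioned liver against the unclamped one. It shares the sham arrays with I/R against sham, so the 2 comparisons are not independent. Actb was higher in IPC by 0.54 ± 0.050 (SE), 1.46-fold, and Tuba1b lower by 1.27-fold, a difference of -0.34 ± 0.065. The pair difference was 0.88 ± 0.075, a 1.85-fold higher ratio, and ranked 2 of the 105 pairs in size. This rank, too, restates the differences by which the pair was chosen. Groups did not overlap for either gene, as for 11.5% of tested probes that were higher in IPC and 15.9% that were lower. At least the rise of Actb was seen in 7.33% of tested probes and at least the fall of Tuba1b in 10.9%. Here too the balance changed with the scaling, to 16.7% higher and 11.9% lower when only always-detected probes set the percentile, and to 5.89% and 18.7% with median scaling.

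No slide holds both groups of this comparison, and the slide weighed on it. With slide as a block, which carries the comparison through the I/R arrays, Actb differed by 0.44 ± 0.079 (SE), Tuba1b by -0.11 ± 0.084 and the pair by 0.55 ± 0.065. Without scaling between arrays the Tuba1b difference turned to 0.025 ± 0.058, while that of Actb was 0.91. Both differences thus changed in size with the scaling and with the slide. That of Actb kept its direction under both, while that of Tuba1b kept it with slide as a block and turned with no scaling.

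**Figure D4:**
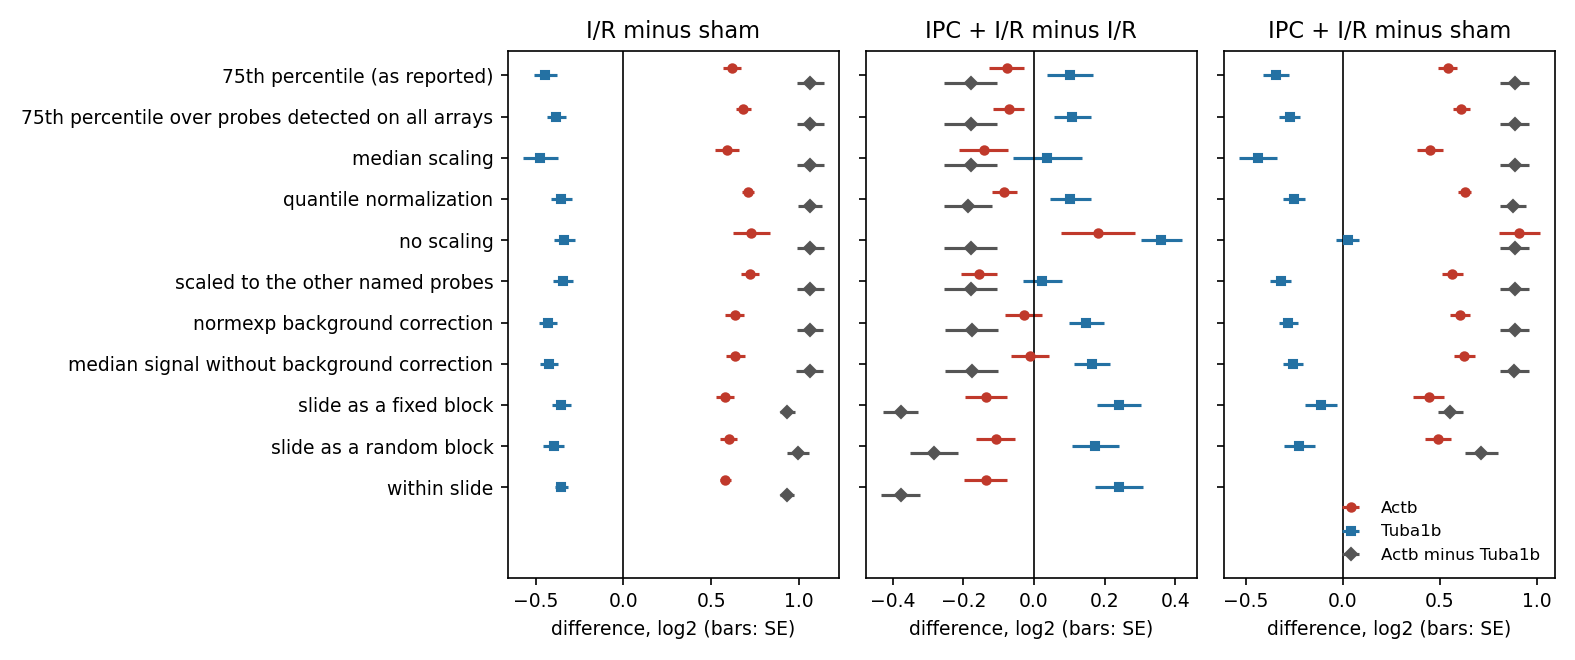
Differences of Actb (circles), Tuba1b (squares) and Actb minus Tuba1b (diamonds) between groups, in log2 units with bars of 1 SE, under the scaling used here and other settings. I/R minus sham keeps its sign throughout, IPC minus I/R grows for the pair within slide 1 (-0.38), and Tuba1b in IPC minus sham is near 0 with no scaling (0.025).

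Within the groups, the relation of Actb and Tuba1b did not pass a test under this scaling, and its sign changed with the scaling. The measure does not use the group differences. Deviations of the 15 arrays from their group means had a Pearson r of -0.05 (permutation p = 0.877, two-sided, 100000 permutations within groups) and a Spearman rho of -0.05 (permutation p = 0.867). Without IPC array 3 and I/R array 5, the 2 arrays farthest from the median on the Actb axis, r was -0.25 (permutation p = 0.335). When the mean of each group on each slide was removed, r was 0.56 (permutation p = 0.0960). With median scaling r was 0.62 (permutation p = 0.0155) and rho 0.47 (permutation p = 0.0902), and with no scaling r was 0.80 (permutation p = 0.00456) and rho 0.59 (permutation p = 0.0558). With no scaling the brightness of an array enters both probes alike, so a relation of the 2 genes cannot be told apart from it. Quantile normalization turned both, to an r of -0.60 (permutation p = 0.0879) and a rho of -0.69 (permutation p = 0.0310). When always-detected probes alone set the 75th percentile, r was -0.55 (permutation p = 0.131) and rho -0.55 (permutation p = 0.103). The pooled relation thus has no settled sign. This relation of Actb to Tuba1b was the one tested. Both r and rho were tested under each setting, and the p-values are raw, with no adjustment for the number of settings. IPC array 3 was the lowest IPC array for both genes, and its 75th percentile was the highest of all 15.

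Because Actb and Tuba1b serve as reference genes, the other 13 named genes were set against each of them. Set against Actb, all 13 were lower in I/R than in sham, by differences of -0.89 (Hsp90ab1) to -0.35 (Tfrc, the transferrin receptor). Set against Tuba1b, all 13 were higher in I/R, by 0.17 (Hsp90ab1) to 0.71 (Tfrc). Set against the 75th percentile, 3 were higher and 10 lower, between -0.27 and 0.27, with a median of -0.15. The same genes on the same arrays thus had opposite signs under the 2 references. This was set beforehand by the differences of the pair, 0.62 for Actb and -0.45 for Tuba1b. All 13 lay between these 2, so they had to be lower against Actb and higher against Tuba1b. It restates the differences by which the pair was chosen.

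Gapdh, the glycolytic enzyme that is itself a common reference, shows the size of this. It differed between I/R and sham by -0.86 when set against Actb, by 0.21 when set against Tuba1b, and by -0.24 when set against the 75th percentile. Hprt, an enzyme of purine salvage, differed by -0.49 against Actb, by 0.58 against Tuba1b and by 0.13 against the 75th percentile.

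**Figure D5:**
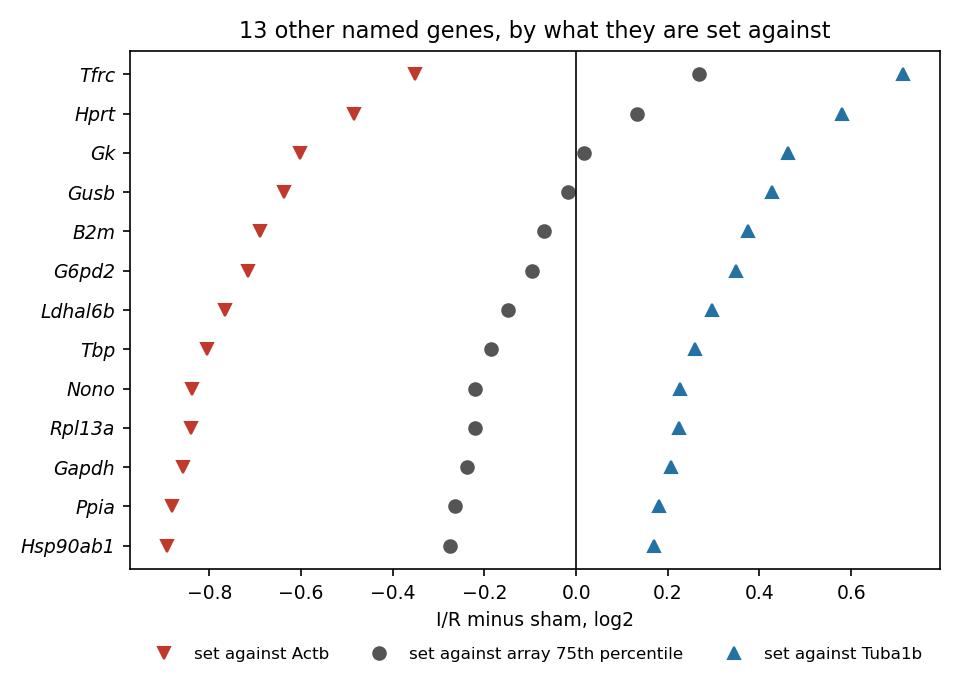
I/R minus sham difference, in log2 units, of the 13 other named genes when set against Actb (red, pointing down), the 75th percentile of the array (grey circles) or Tuba1b (blue, pointing up). All 13 lie below 0 against Actb and above 0 against Tuba1b.

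In IPC against sham the split was nearly as wide, again set by the differences of the pair. Of the 13 genes, 12 were lower when set against Actb and 13 higher when set against Tuba1b. The exception was Tfrc, which differed by 0.11 against Actb with groups that overlapped. In IPC against I/R the medians of the 13 lay closer together, at 0.14 against Actb, -0.04 against Tuba1b and 0.06 against the 75th percentile.

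Among the 15 named genes, Actb had the 2nd widest spread over all arrays (SD 0.29) and Tuba1b the 4th (SD 0.22). Both spreads include the group differences by which the pair was chosen. Ldhal6b, a testis-type lactate dehydrogenase relative, was the widest (SD 0.41), but its spread lay within the groups (SD 0.43). For Actb the spread within groups was 0.065 and for Tuba1b 0.096. The narrowest was Gk, glycerol kinase (SD 0.072).

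Likeness to a member was taken as the root mean square difference over the 15 arrays, after each probe was centred on its own mean. Closest to Actb among named genes were Tfrc (0.21), Hprt (0.23) and Gk (0.26). Their I/R minus sham differences were 0.27, 0.13 and 0.017, each smaller than that of Actb. Among probes without a gene name, ASMM10P045522 (0.056) and ASMM10P056920 (0.057) came closest, with I/R minus sham differences of 0.58 and 0.64.

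Closest to Tuba1b were Nono, a nuclear RNA-binding protein (0.098), Rpl13a, a ribosomal protein (0.10), and Hsp90ab1 (0.11). Their I/R minus sham differences of -0.22, -0.22 and -0.27 were all smaller than the -0.45 of Tuba1b. The closest unnamed probes were ASMM10P002116 (0.037) and ASMM10P007953 (0.039), with differences of -0.44 and -0.45. Actb was the least like Tuba1b of the other 14 named genes, at 0.48, a distance that includes the group differences by which the pair was chosen.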

How the data were processed

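Liver RNA was amplified with random primers, labelled with Cy3 and hybridised to one-colour arrays, 1 per sample, per the labels' protocols. The deposited files hold the intensity of each spot from Agilent Feature Extraction 11.0.1.1 (per the file headers), and the processed intensity is already corrected for background. The 300 spots of 15 negative probes and all control spots were left out, as were spots flagged as outliers (13 to 40 per array). A mean per group was fitted with limma 3.58.1 in R 4.3.3 to 34985 probes well above background on at least 5 arrays, for the standard errors only. That for the Actb minus Tuba1b difference came from least squares.

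Gene names came from the RefSeq accessions in the files, matched for 15 of 15 to a table of assembly GRCm38.p6. The mm9 build of the files differs, so no coordinates are given. The members, the lists and the rule for named genes (members, list genes, and the 3 named genes and 2 unnamed probes most like each member) were chosen with earlier results of these data known. The values of the other 13 genes set against each member, and of all pairs, were added after the values were seen. The fit and the count of probes without overlap were tested on simulated data. No 2 arrays held identical values.

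Alternatives were other scalings and background corrections, other summaries or positions of spots, slide or replicate number as a block, and fits with 1 array left out. As the files give a median spot signal, normexp (offset 50) was run on that. The number of arrays limits the precision.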

Additional observations from a re-analysis of the deposited data

How the results depend on the processing

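I/R minus sham kept its direction for Actb, Tuba1b and their difference under every alternative run, and so did IPC minus sham for Actb and for the pair difference. Without 1 array, these 5 differences stayed within 1 SD between replicates of the value given. Values that moved by more than that follow, in log2 units, and the cause was not tested. For Actb in I/R minus sham, quantile normalization gave 0.71, no scaling 0.73 and scaling to the other named probes 0.72. For Actb in IPC minus I/R, no scaling turned the sign (0.18), scaling to the other named probes gave -0.16 and the median signal without background correction -0.011. For Actb in IPC minus sham, the 75th percentile over detected probes gave 0.61, median scaling 0.45, quantile normalization 0.63, no scaling 0.91, the median signal 0.63 and the slide block 0.44. Tuba1b in I/R minus sham came to -0.34 both with no scaling and against the other named probes. In IPC minus I/R it came to 0.36 with no scaling and 0.24 with slide as a block and within slide 1. In IPC minus sham it turned to 0.025 with no scaling, and came to -0.11 with slide as a fixed and -0.22 as a random block. With slide as a fixed block, the pair difference came to 0.93 in I/R minus sham and -0.38 in IPC minus I/R. In these comparisons the fixed block and the difference within a slide are the same estimate, for the single genes too. In IPC minus sham the pair difference came to 0.55 with a fixed and 0.71 with a random slide block.

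The share of probes without overlap went to 13.9% in I/R against sham when dim probes were kept. For IPC against I/R it went to 5.29% with dim probes kept and 4.38% with median scaling. Leaving out 1 array gave 9.17% to 12.8% there, the highest without I/R array 4. Under one scaling, fewer arrays can only leave this share as it is or raise it, and this holds within a slide too. Of probes without overlap, 43.8% were higher in I/R than in sham, against 60.5% with the percentile over detected probes. For IPC minus sham this was 42.0%, against 58.3% there, 23.9% with median scaling and 21.3% with dim probes kept, and for IPC minus I/R 47.4%, against 27.6% with median scaling. Scalings within a slide were added after the data were seen: median scaling took the share within slide 1 from 28.4% to 18.3%. The within-group correlation of Actb and Tuba1b ran from -0.31 to 0.058 when 1 array was left out, and turned to 0.62 with median scaling, 0.80 with no scaling and 0.56 with slide means removed. It was more negative, at -0.60, with quantile normalization and, at -0.55, with the 75th percentile over detected probes.

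The replicate block left every difference as it was (0.62 for Actb in I/R minus sham) with larger standard errors, 0.059 for Actb and 0.074 for Tuba1b. Same-numbered arrays deviated together (r over 0.1) in 5 of 15 pairs, so the numbers were not taken to pair the arrays.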
